A study of Mus musculus with 2 samples.

Results

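The genes Adcy1 to Adcy9 encode the membrane-bound adenylyl cyclases of the mouse. All 9 were found by their symbols among the 32285 genes of both deposited count matrices, and the rule uses their symbols only. They are described here across the cell classes of pancreatic islets and between 1 library from mice given saline and 1 library from mice given CDS.

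Both groups were DIO mice, the label's abbreviation, and both were treated for 2 weeks before their islets were taken. 1 group received saline and the other CDS at 10 mg/kg, and each group is represented by 1 droplet library of single islet cells. The series title speaks of an antagonist of the alpha2A-adrenergic receptor that acts outside the brain, but the labels do not link the name CDS to that antagonist, nor do they give the number, sex or age of the mice in a library. Islets were freed with collagenase V and collected by hand under a microscope, and no sort of cells is stated. The label gives the cell type as islet b cell, while both libraries also held alpha-like, delta-like, exocrine, endothelial and immune cells, so every level below is given per class.

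Adenylyl cyclases make cyclic AMP from ATP at the inner face of the plasma membrane. Receptors that couple to the stimulatory G protein Gs switch them on, and receptors that couple to Gi, among them the alpha2A-adrenergic receptor, hold them down. In beta cells cyclic AMP strengthens insulin release in response to glucose through protein kinase A and the exchange factor Epac, and the incretin receptors act by this route. The isoforms differ in what else they answer to: Adcy1, Adcy3 and Adcy8 are known for regulation by calcium and calmodulin, Adcy2, Adcy4 and Adcy7 for stimulation by G protein beta-gamma subunits together with Gs, Adcy5 and Adcy6 for inhibition by calcium and by Gi, and Adcy9 for its weak response to the drug forskolin.

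Start-site sequences are shown for 3 members whose distribution over the classes differed most plainly, Adcy9 (the most abundant in endocrine cells), Adcy2 (highest in delta-like cells) and Adcy4 (highest in endothelial-like cells). RefSeq windows on GRCm38.p6, the build of mm10, were at hand for 7 of the 9 members, Adcy6 and Adcy8 having no entry. Each line gives the 250 bases before the RefSeq start, 5′ to 3′ in the sense of the gene. For Adcy4 the gene coordinates given below come from another annotation and reach to 55784095. The last bases of its window therefore lie inside that gene span. Capitals mark matches, on either strand, to GGGCGG (the GC box), TGACG (the core of the cyclic AMP response element, also contained in the full element TGACGTCA), CCAAT and TATAAA.
Adcy9, chr16:4420499-4420748, minus strand: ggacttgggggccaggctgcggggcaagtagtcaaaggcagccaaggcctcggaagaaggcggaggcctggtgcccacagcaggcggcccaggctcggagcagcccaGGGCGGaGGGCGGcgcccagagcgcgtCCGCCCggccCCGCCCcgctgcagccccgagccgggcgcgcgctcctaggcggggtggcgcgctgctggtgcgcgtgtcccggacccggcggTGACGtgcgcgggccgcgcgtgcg
Adcy2, chr13:68999542-68999791, minus strand: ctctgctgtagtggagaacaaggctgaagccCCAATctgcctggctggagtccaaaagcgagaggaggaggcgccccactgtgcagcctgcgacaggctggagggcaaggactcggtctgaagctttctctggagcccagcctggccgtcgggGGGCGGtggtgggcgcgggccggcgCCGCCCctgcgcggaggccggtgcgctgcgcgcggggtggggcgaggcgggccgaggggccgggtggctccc
Adcy4, chr14:55784073-55784322, minus strand: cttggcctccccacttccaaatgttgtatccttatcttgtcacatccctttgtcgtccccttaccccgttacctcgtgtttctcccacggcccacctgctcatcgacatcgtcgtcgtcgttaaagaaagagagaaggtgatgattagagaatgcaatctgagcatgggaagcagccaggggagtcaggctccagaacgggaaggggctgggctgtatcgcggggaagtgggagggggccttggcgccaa

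The Adcy9 window held 4 matches to GGGCGG and 1 to TGACG, and 78.8% of its bases were G or C. The Adcy2 window held 2 matches to GGGCGG and 1 to CCAAT at 73.2% G or C. The Adcy4 window held none of these motifs at 56% G or C. Among 32851 windows of 250 bases in the same table, 32.7% held GGGCGG, 17.8% TGACG, 1.55% the full TGACGTCA, 33.9% CCAAT and 12.4% TATAAA, and the median share of G or C was 52.4%. The full element was in none of the 10 windows of the 7 members. These matches describe the letters only, since no binding or chromatin data were analysed.

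The saline library held 12453 barcodes and 124343325 UMIs (unique molecular identifiers, each standing for a captured RNA molecule), and the CDS library 7268 barcodes and 141191447 UMIs; they shared 25 barcode sequences. After filters and removal of called doublets, 10977 saline and 6159 CDS cells remained, with median UMIs of 9794 and 19069 and median mitochondrial shares of 2.47% and 1.42%. The 5 classes compared between libraries were named from markers and had at least 100 cells in each library: beta-like (4974 saline and 3297 CDS cells), alpha-like (1076 and 1085), delta-like (537 and 433), endothelial-like (342 and 263) and macrophage-like (163 and 157). In all 5, ratios CDS over saline fell with the annotated span of a gene. In beta-like cells the median log2 ratio was 0.51 for the fifth of genes with the shortest spans and -0.35 for the fifth with the longest, so each member's ratio is set beside that of genes of like span. With 1 library per group there is no replicate spread, no test was possible, and the 95% intervals cover counting error only.

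Adcy9 carried most of the adenylyl cyclase RNA of beta-like cells, and its level there was lower in the CDS library. Adcy9 (ENSMUSG00000005580) lies on chr16:4287529-4420498 (minus strand, a span of 133 kb). Gene coordinates here are on mm10, from the GENCODE annotation, and cover all exons and introns. Levels are in CPM: the share of a class's UMIs that belongs to the gene, times 1000000, after TMM scaling of the pair of libraries. Saline beta-like cells held Adcy9 at 148 CPM (145 to 150.4), and CDS beta-like cells at 83.2 (81.2 to 85.2), with no overlap. These levels rest on 13237 and 6663 UMIs. Adcy9 made up 85.4% (84.8 to 85.9) of the UMIs of the 9 genes in saline beta-like cells and 78.7% (77.9 to 79.6) in CDS beta-like cells.

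Adcy9 was also the leading member by CPM in the other endocrine classes. In alpha-like cells its level was 181 CPM (173 to 189) in saline and 123 (117 to 129) in CDS, which was 66.9% and 59.9% of the adenylyl cyclase UMIs. In delta-like cells it was 162 CPM (152 to 172) and 100.4 (93.0 to 108), or 39.8% and 37.7% of those UMIs. The order alpha-like, delta-like, beta-like was separated by the intervals in both libraries. The totals behind these levels include hormone RNA. Insulin RNA was 34.7% and 40.7% of beta-like UMIs in saline and CDS, against 2.12% and 2.73% in alpha-like and 3.55% and 3.79% in delta-like cells. The order of the classes without hormone RNA in the total was not computed. In saline the steps were small, and without TMM scaling the delta-like and beta-like levels were 169.5 and 170.3 CPM, so their order rested on the scaling. Cells with at least 2% of their UMIs from Ppy, the pancreatic polypeptide gene, were gated singly because no cluster met the marker rule for them. The gate also required insulin RNA below 15% of UMIs and Ppy more than 2-fold above both Gcg and Sst. Those 233 saline and 144 CDS cells held Adcy9 at 172 (157 to 187) and 86.5 CPM (75.95 to 98.2) without TMM scaling. The gate took no account of clusters, so gated cells could also belong to a named class. The alpha-like class itself held cluster 3, led by Gcg, Ppy and Ttr, with 632 saline and 846 CDS cells.

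Outside the endocrine classes Adcy9 was set beside insulin RNA as a gauge of free RNA. Insulin RNA, which these cells should not make, stood at 13.1% of its beta-like share of UMIs in saline B cell-like cells, 12.4% in T cell-like, 10.6% in plasma-like and 25.05% in stromal-like cells. Adcy9 stood at 11.8%, 13.8%, 9.08% and 24.4% of its own beta-like level in the same classes, close to the insulin shares. In CDS stromal-like cells the Adcy9 share was 32.0% on 16 UMIs and the insulin share 24.99%. In saline T cell-like cells 77 UMIs were seen and 69 would stand at the insulin share. In saline macrophage-like cells Adcy9 reached 27.1% of the beta-like level while insulin reached 10.8%, with 48 Adcy9 UMIs seen and 19.1 at the insulin share. In saline endothelial-like cells the shares were 15.5% and 9.77%, with 59 UMIs seen and 37.2 at the insulin share. More Adcy9 UMIs than at the insulin share were also seen in acinar-like cells, 36 against 15.03 in saline and 30 against 11.5 in CDS, and in ductal-like cells, 20 against 11.3 and 12 against 3.79. In CDS the macrophage-like cells had 45 against 17.65 and the endothelial-like cells 33 against 17.9. The part of free RNA in these levels was not tested.

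**Figure D1:**
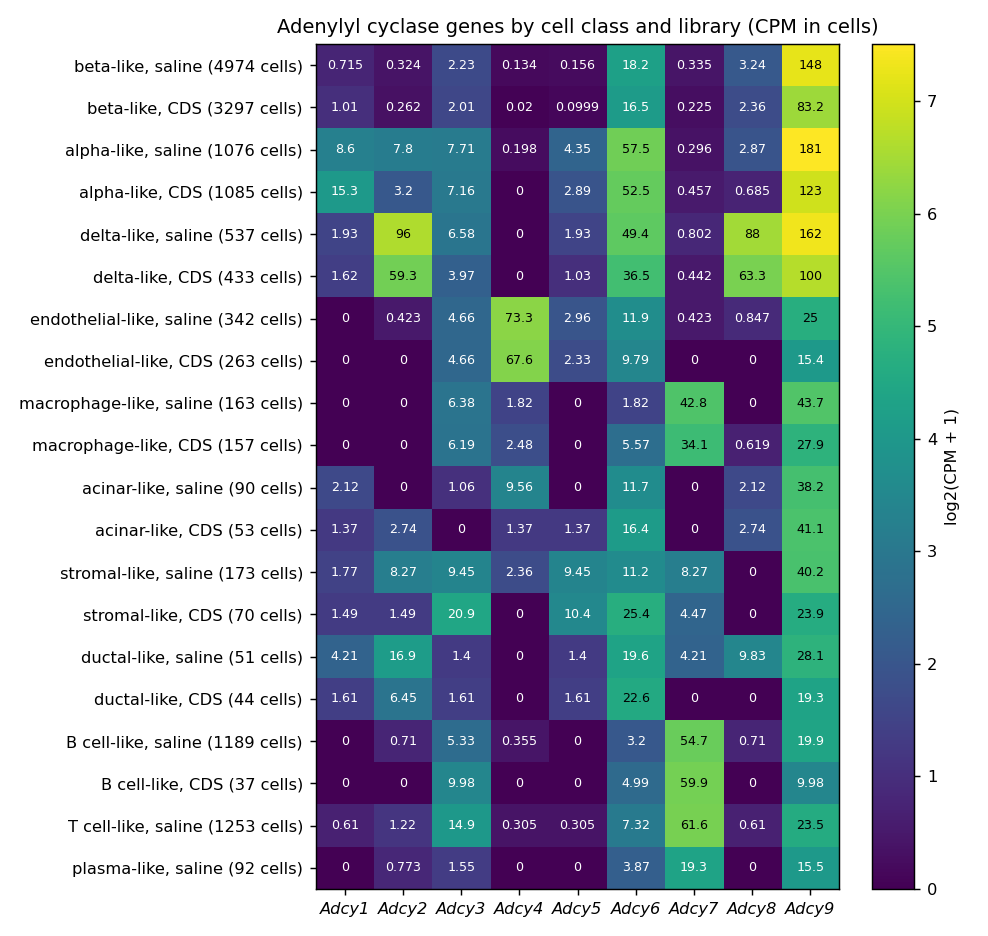
Level of each adenylyl cyclase gene (columns) in each cell class and library (rows, with the number of cells), as TMM-scaled CPM printed in the cells and colour on a log2(CPM + 1) scale. Adcy9 is high in the beta-like, alpha-like and delta-like rows, Adcy2 and Adcy8 in the delta-like rows, Adcy4 in the endothelial-like rows, and Adcy7 in the macrophage-like, B cell-like and T cell-like rows.

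Adcy6, the Gi-inhibited and calcium-inhibited isoform, was the other member seen throughout the endocrine cells. It (ENSMUSG00000022994) lies on chr15:98589973-98610076 (minus strand), with a span of 20.1 kb. Its level was 18.2 CPM (17.4 to 19.1) in saline and 16.5 (15.6 to 17.4) in CDS beta-like cells, 57.5 (52.9 to 62.4) and 52.5 (48.7 to 56.6) in alpha-like cells, and 49.4 (44.1 to 55.3) and 36.5 (32.1 to 41.3) in delta-like cells. Alpha-like and delta-like cells thus stood above beta-like cells in both libraries, and their own intervals overlapped in saline only. Per kb of span, Adcy6 and Adcy9 came close to each other in saline beta-like cells, at 0.907 and 1.11 CPM per kb, and stood at 0.819 and 0.626 CPM per kb in CDS. In alpha-like and delta-like cells Adcy6 was above Adcy9 per kb in both libraries, at 2.86 against 1.36 CPM per kb in saline alpha-like cells. The libraries were made with a protocol that captures RNA at its 3′ end, for which span need not set the count, so both scales are given.

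Delta-like cells were set apart by Adcy2 and Adcy8. Adcy2 (ENSMUSG00000021536), a beta-gamma-stimulated isoform, lies on chr13:68620043-68999541 (minus strand, 379.5 kb), and Adcy8 (ENSMUSG00000022376), a calcium-stimulated isoform, on chr15:64697084-64922296 (minus strand, 225 kb). In delta-like cells Adcy2 was at 96.0 CPM (88.4 to 104) in saline and 59.3 (53.7 to 65.4) in CDS, and Adcy8 at 88.0 (80.7 to 95.6) and 63.3 (57.4 to 69.6). In beta-like cells the same genes were at 0.324 and 0.262 CPM for Adcy2 and at 3.24 and 2.36 for Adcy8. The next class after the delta-like cells was 5.70-fold lower for Adcy2 and 8.95-fold lower for Adcy8 in saline, ductal-like cells in both cases, on 12 and 7 UMIs from 51 cells. Gm35161 and Gm21798 are annotated on the opposite strands of Adcy2 and Adcy8, and Gm29331 on that of Adcy6. Whether the authors' counting used strand is not stated. The gated Ppy cells held intermediate levels, with Adcy2 at 20.3 and 14 CPM and Adcy8 at 17.6 and 18.7 CPM without TMM scaling.

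Adcy1, the neuronal calcium-stimulated isoform, was highest in alpha-like cells among the classes in both libraries. It (ENSMUSG00000020431) lies on chr11:7063489-7178506 (plus strand, 115 kb). Its level in alpha-like cells was 8.60 CPM (6.88 to 10.6) in saline and 15.3 (13.3 to 17.6) in CDS. The next class in saline was ductal-like at 4.21 CPM on 3 UMIs, and in CDS delta-like at 1.62 on 11 UMIs. In beta-like cells Adcy1 was at 0.715 and 1.012 CPM.

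Adcy3 and Adcy5 were at low levels in the endocrine classes. Adcy3 (ENSMUSG00000020654, chr12:4133103-4213525, plus strand, 80.4 kb), known from olfactory signalling and primary cilia, was at 2.23 and 2.01 CPM in beta-like, 7.71 and 7.16 in alpha-like and 6.58 and 3.97 in delta-like cells of saline and CDS. Its highest saline level was 14.9 CPM (11.05 to 19.8) in T cell-like cells, and its highest CDS level 20.9 (11.4 to 35.0) in stromal-like cells on 14 UMIs. Cenpo is annotated on the opposite strand of Adcy3, and reads of the pair might not be told apart. Adcy5 (ENSMUSG00000022840, chr16:35154877-35305738, plus strand, 151 kb), an isoform inhibited by calcium, was highest in stromal-like cells, at 9.45 CPM (5.40 to 15.4) in saline and 10.4 (4.198 to 21.5) in CDS. Among endocrine classes Adcy5 was highest in alpha-like cells at 4.35 and 2.89 CPM, and in beta-like cells it had 14 and 8 UMIs.

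Adcy4 and Adcy7 marked the vascular and immune classes. Adcy4 (ENSMUSG00000022220, chr14:55769057-55784095, minus strand, 15.04 kb) was at 73.3 CPM (62.7 to 85.0) in saline and 67.6 (57.0 to 79.5) in CDS endothelial-like cells, or 61.3% and 67.8% of their adenylyl cyclase UMIs. The next class was acinar-like at 9.56 CPM on 9 UMIs in saline, and macrophage-like at 2.48 on 4 UMIs in CDS. In delta-like cells Adcy4 had no UMI in either library, which allows up to 0.481 CPM in saline and 0.442 in CDS at 3 counts. Adcy7 (ENSMUSG00000031659, chr8:88272403-88329962, plus strand, 57.6 kb) was at 42.8 CPM (31.4 to 56.9) and 34.1 (25.7 to 44.3) in macrophage-like cells. It was at 54.7 (46.4 to 64.0) in saline B cell-like, 61.6 (53.4 to 70.7) in T cell-like and 19.3 (12.5 to 28.5) in plasma-like cells, against 0.335 in saline beta-like cells. The macrophage-like, B cell-like and T cell-like intervals of Adcy7 overlapped one another in saline. The CDS library held 37 B cell-like cells, with Adcy7 at 59.9 CPM (30.9 to 105), while its T cell-like and plasma-like cells were too few for a level.

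**Figure D2:**
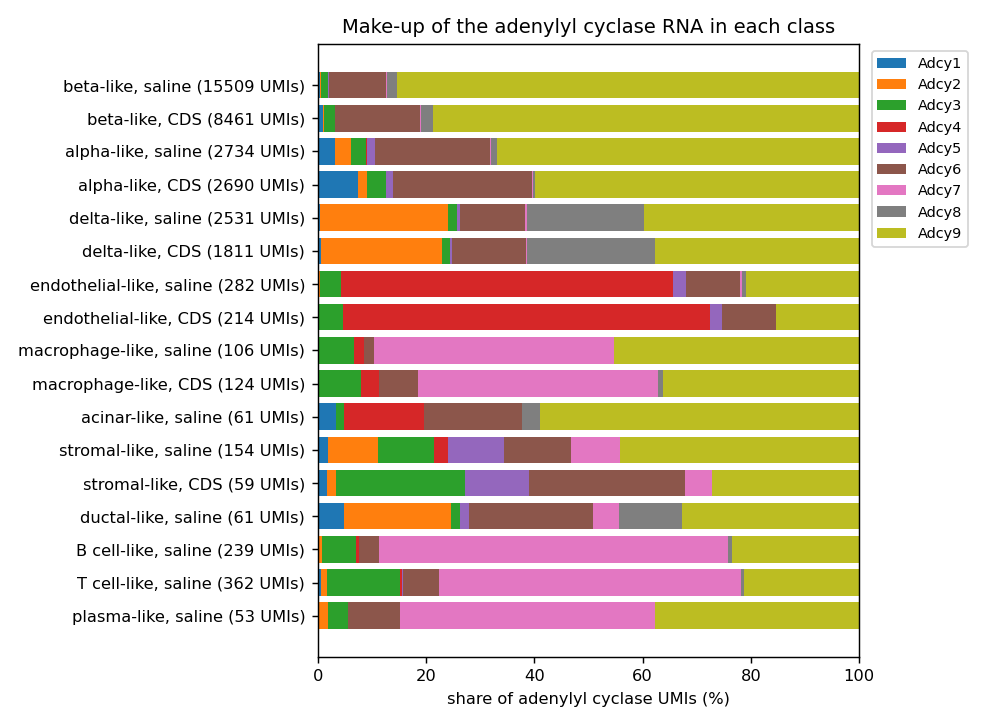
Share of the UMIs of the 9 adenylyl cyclase genes that belongs to each gene (x axis, %), for each class and library (y axis, with the number of UMIs). Adcy9 fills 85.4% of the saline beta-like bar, while Adcy4 fills 61.3% of the saline endothelial-like bar and delta-like cells divide their UMIs mainly among Adcy9, Adcy2, Adcy8 and Adcy6.

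Counted cell by cell at equal depth, delta-like cells were also the class in which several members were seen together. Each cell was thinned to 5000 UMIs and shallower cells were left out, 383 saline and 223 CDS cells in the beta-like class. At that depth 43.8% of 504 saline and 29.3% of 416 CDS delta-like cells held at least 1 UMI of several members. In alpha-like cells the shares were 23.8% and 16.4%, and in beta-like cells 8.06% and 3.71%. Adcy9 was seen in 54.8% (53.4 to 56.3) of saline and 30.1% (28.4 to 31.7) of CDS beta-like cells, in 59.7% and 42.1% of alpha-like cells and in 51.6% and 38.5% of delta-like cells. Unthinned, the beta-like shares were 84.7% and 74.2%, at median depths of 15550 and 27705 UMIs. Thinned shares carry no TMM scaling, and without it the median log2 ratio of all beta-like genes was -0.35. Adcy6, not called in the beta-like comparison below, also fell, from 10.9% (10.02 to 11.85) of thinned saline to 6.93% (6.056 to 7.885) of CDS cells. The part of this wider shift in the shares given here was not tested. In saline plasma-like cells, whose Adcy9 level lay below the insulin share given above, 7.78% of 90 thinned cells held an Adcy9 UMI. Adcy2 was seen in 32.9% and 22.1% of thinned delta-like cells and Adcy8 in 31.7% and 26.0%, so neither was detected in every delta-like cell at this depth.

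**Figure D3:**
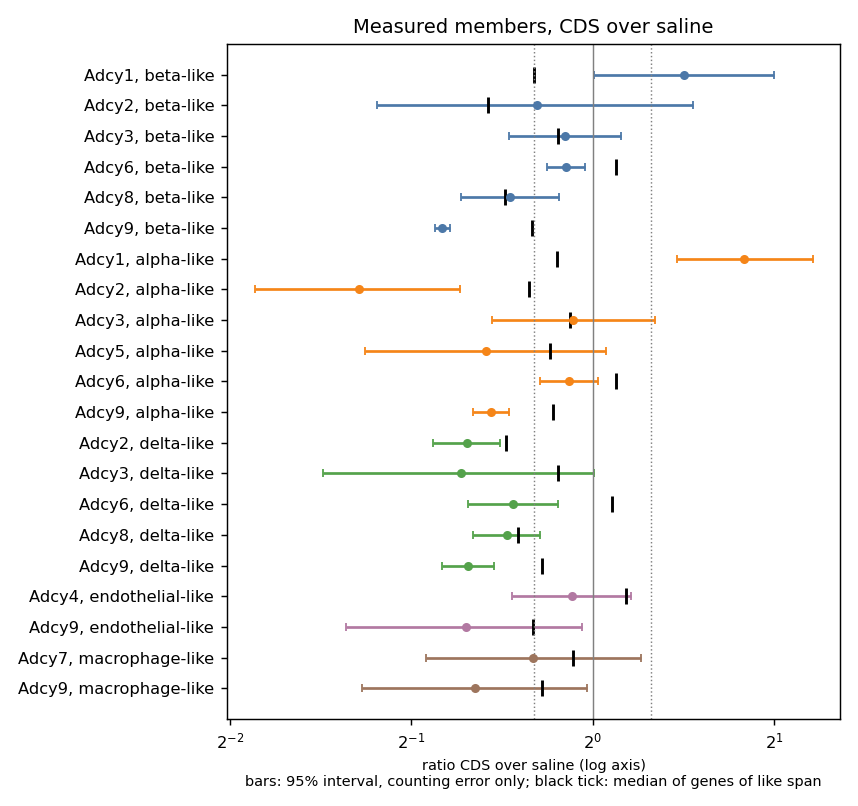
Ratio CDS over saline (x axis, log scale) of each member measured in each of 5 classes (y axis), with bars for the 95% counting interval, black ticks for the median of genes of like span and dotted lines at the limits for a call (log2 ratios of -0.32 and 0.32). Adcy9 lies left of the lower limit in all 5 classes, from 0.563 to 0.678, and Adcy1 lies right of the upper limit in the alpha-like and beta-like classes.

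Between the libraries Adcy9 was called lower in each of the 5 classes, and it was the only member measured in all 5. The share of all genes called lower in all 5 is not given here. Adjusted for span, Adcy9 was called lower in the beta-like, alpha-like and delta-like classes only. A member counted as measured with 50 UMIs over both libraries. It was called higher where its log2 ratio CDS over saline reached 0.32, and lower where the log2 ratio was -0.32 or below, provided that the counting interval of the ratio left out 1. In beta-like cells 6 members were measured; 1 was higher, where 28.1% of 15175 measured genes were, and 2 were lower, where 19% were. The ratio of Adcy9 was 0.563 (0.547 to 0.580) and that of Adcy8 0.729 (0.604 to 0.879). The higher member was Adcy1 at 1.42 (1.007 to 2.00) on 64 and 81 UMIs, a ratio that was 1.07 without TMM scaling. Adcy6 was at 0.903 (0.839 to 0.971), Adcy3 at 0.9003 (0.727 to 1.11) and Adcy2 at 0.810 (0.439 to 1.47), none of which passed the limits. The median log2 ratio of the 6 members was -0.23, against 0.06 for all genes.

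Set beside genes of like span, the beta-like Adcy8 ratio no longer stood apart and the Adcy9 ratio still lay below the limit. Genes of the span of Adcy9 had a median log2 ratio of -0.34 in beta-like cells, and the log2 ratio of Adcy9 relative to them was -0.49, a span-adjusted ratio of 0.710. The span-adjusted ratio of Adcy8 was 1.02, and that of Adcy1 was 1.77. After this adjustment 1 member was higher, where 17% of genes were, and 1 lower, where 14.8% were.

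**Figure D4:**
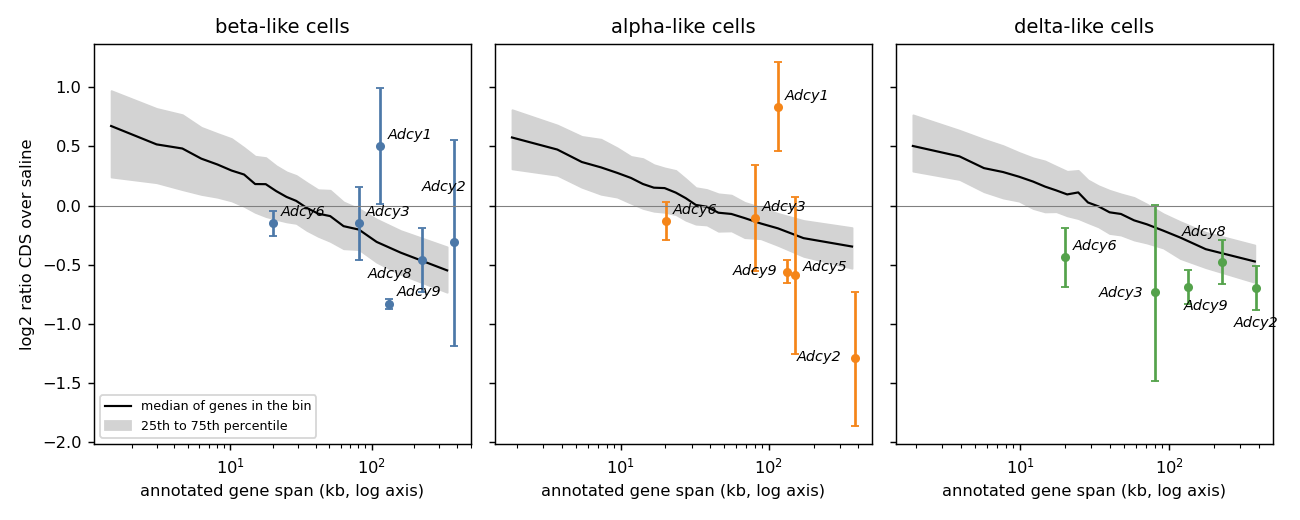
Log2 ratio CDS over saline (y axis) against annotated gene span (x axis, kb, log scale) for the measured members in beta-like, alpha-like and delta-like cells, with 95% counting intervals. The black line is the median over bins of genes and the grey band their 25th to 75th percentile; Adcy9 lies below the line in all 3 panels and Adcy1 above it in the beta-like and alpha-like panels.

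In alpha-like cells Adcy9 and Adcy2 were lower and Adcy1 was higher in the CDS library. Of 6 measured members 1 was higher, where 21.2% of 12257 genes were, and 2 lower, where 10.7% were. Adcy9 was at 0.678 (0.634 to 0.725) and Adcy1 at 1.78 (1.38 to 2.32). Adcy1 was seen in 65 of 1076 saline and 148 of 1085 CDS alpha-like cells. At 5000 UMIs it was seen in 4.63% (3.38 to 6.16) and 6.26% (4.83 to 7.95), with overlapping intervals. At 10000 UMIs the shares were 5.23% (3.08 to 8.24) and 12.5% (10.2 to 15.2), without overlap, in 325 saline and 726 CDS cells. The Adcy2 ratio of 0.410 (0.275 to 0.603) rested on few cells, since 6 of the 1076 saline cells held 50% of its 79 UMIs. With called doublets kept the ratio was 1.02, but the alpha-like class then held other cells, 699 from saline and 679 from CDS. A cluster led by Ppy and Gcg, with 449 saline and 507 CDS cells, was unnamed in that setting. Which of these changes moved the ratio was not tested. In the main setting the alpha-like class also held a cluster led by Gcg and Ppy. Cells gated singly on Gcg held Adcy2 at 5.47 CPM in saline and 1.835 in CDS without TMM scaling. On the same scale the alpha-like class held 8.28 and 3.015 CPM. Adcy3 at 0.929 (0.681 to 1.27), Adcy5 at 0.666 (0.420 to 1.05) and Adcy6 at 0.914 (0.817 to 1.02) were not called, Adcy5 because its interval included 1. Adjusted for span, the alpha-like ratios were 0.788 for Adcy9, 2.04 for Adcy1 and 0.522 for Adcy2, with 1 member higher, where 9.74% of genes were, and 2 lower, where 9.33% were.

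In delta-like cells the 4 most abundant members, Adcy9, Adcy2, Adcy8 and Adcy6, were lower in the CDS library. Of 5 measured members 0 were higher, where 18.3% of 11497 genes were, and 4 were lower, where 14.3% were. The ratios were 0.621 (0.563 to 0.685) for Adcy9, 0.618 (0.543 to 0.702) for Adcy2, 0.720 (0.633 to 0.818) for Adcy8 and 0.738 (0.622 to 0.876) for Adcy6. Adcy3, on 41 and 27 UMIs, was at 0.604 (0.357 to 1.005). Adcy2 and Adcy8 have long spans, and adjusted for span their ratios were 0.859 and 0.958. Adcy9 at 0.754 and Adcy6 at 0.686 were lower after the adjustment too, with 0 members higher, where 9.82% of genes were, and 2 lower, where 8.01% were. The composition of the adenylyl cyclase UMIs in delta-like cells was within overlapping intervals in both libraries for these genes, with Adcy2 at 23.6% and 22.3% and Adcy8 at 21.7% and 23.7%.

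In endothelial-like and macrophage-like cells 2 members each were measured, and the intervals of their ratios overlapped. In endothelial-like cells Adcy4 was at 0.923 (0.735 to 1.16) and Adcy9 at 0.616 (0.390 to 0.959); of these 2 measured members 0 were higher, where 20.3% of 8552 genes were, and 1 lower, where 13.9% were. The endothelial-like Adcy9 ratio moved with the filter on cells, to 1.26 with a looser and 0.377 with a stricter filter, so its direction rests on that choice. In macrophage-like cells Adcy7 was at 0.796 (0.529 to 1.201) and Adcy9 at 0.637 (0.415 to 0.978), again with 0 higher, where 16.6% of 6820 genes were, and 1 lower, where 15.2% were. The macrophage-like log2 ratio of Adcy7, -0.33, reached the size limit, but its interval included 1. Adjusted for span, Adcy9 stood at 0.773 in both classes and its interval included 1, so that 0 of 2 members were higher or lower in either. The background was then 11.1% higher and 9.22% lower in endothelial-like and 11.4% and 12.7% in macrophage-like cells. Free beta-cell RNA, at the insulin shares given above, was present in both classes, and its part in these ratios was not tested.

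Within the beta-like class, Adcy9 differed widely between clusters. Its level without TMM scaling was highest in cluster 8 at 362 CPM (346 to 379) and lowest in cluster 6 at 45.0 (42.7 to 47.4), a range of 8.04-fold over both libraries pooled. Within the libraries the levels of clusters 8 and 6 were 358 and 59.4 CPM in saline and 385 and 43.8 CPM in CDS. Cluster 8 was led by Cntnap2, Phactr1 and Kcnip1 and had 611 saline and 127 CDS cells. It held 20.3% insulin UMIs, with medians of 4764 UMIs per cell and 3.89% mitochondrial UMIs. Its beta-like name depended on the setting. Low-depth clusters with the same 3 genes among their leading ones were unnamed at Leiden resolution 2, with doublets kept, and with looser or stricter filters. Markers of Ppy cells scored above those of beta cells there. How many cells they shared with cluster 8 was not computed. Without cluster 8 the highest level was that of cluster 0, at 170.3 CPM. Cluster 6 was led by Mt1, Ins2 and Ins1 and had 174 saline and 1001 CDS cells. It held 46.5% insulin UMIs, with medians of 27483 UMIs per cell and 1.18% mitochondrial UMIs. Levels by cluster were not adjusted for gene span. Between them lay clusters 0, 1, 2 and 14 at 170.3, 119, 90.5 and 65.3 CPM, of which clusters 1 and 2 stood at 158.5 and 123.1 CPM in saline and at 77.9 and 78.3 in CDS. The small cluster 22, led by the dividing-cell genes Stmn1, Top2a and Mki67, was at 139 CPM on 51 saline and 14 CDS cells. With hormone and mitochondrially encoded genes taken out of the total, an alternative chosen after the data were seen, the range from cluster 8 to cluster 6 was 5.03-fold. Adcy6 was likewise highest in cluster 8 at 33.4 CPM (28.6 to 38.8) and lowest in cluster 6 at 10.3 (9.24 to 11.5). Adcy8 reached 6.22 CPM (4.25 to 8.78) in cluster 8 and 5.74 (4.98 to 6.59) in cluster 1 and was at 0.973 (0.661 to 1.38) in cluster 6. By library, Adcy8 was at 7.03 CPM in cluster 1 and 5.455 in cluster 8 in saline, and at 4.43 and 10.7 in CDS, where cluster 8 had 8 UMIs.

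The clusters took unequal shares of the libraries, and the Adcy9 ratio differed among them. Inside clusters with at least 50 cells of each library the ratio was 0.742 (0.693 to 0.794) in cluster 0, 0.579 (0.543 to 0.618) in cluster 1, 0.736 (0.689 to 0.786) in cluster 2 and 0.551 (0.456 to 0.668) in cluster 14. In cluster 6 it was 0.868 (0.731 to 1.04) and in cluster 8 it was 0.993 (0.873 to 1.13), and neither passed the limits. Thus 4 of 6 clusters were called lower for Adcy9, but the share of all genes called lower within each cluster was not computed. Genes of like span had median log2 ratios of -0.18, -0.28, -0.15 and -0.33 in clusters 0, 1, 2 and 14. In clusters 6 and 8 these medians were -0.13 and -0.03. Adjusted for span, the log2 ratios were -0.51 in cluster 1 and -0.53 in cluster 14, while those of clusters 0 and 2, at -0.25 and -0.29, no longer reached the limit. Without cluster 8 the beta-like ratio was 0.581. The ratio of Adcy8 was 0.316 (0.124 to 0.673) in cluster 0 and 0.743 (0.553 to 0.993) in cluster 1, and 1.22 (0.712 to 2.18) in cluster 2. The cluster 0 value rests on 118 saline and 7 CDS UMIs, and the span-adjusted log2 ratio in cluster 1 was -0.03. Adcy6 did not pass the limits in any of the 6 clusters, with ratios from 0.848 to 1.055. Cells were clustered without the member genes, but genes that move with them were used, so the clusters are a description.

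**Figure D5:**
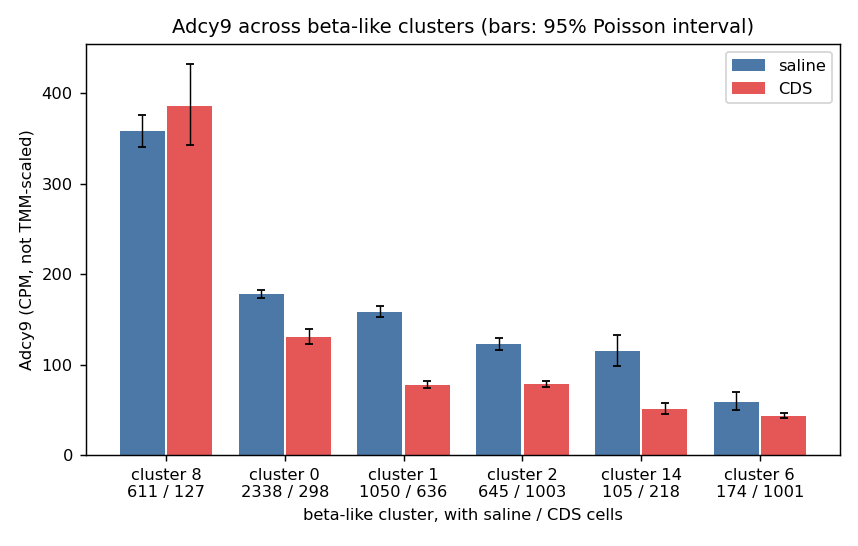
Adcy9 level (y axis, CPM without TMM scaling) in each beta-like cluster of at least 100 cells (x axis, with saline and CDS cell numbers), by library, with 95% Poisson intervals. The saline bars stand above the CDS bars except in cluster 8, where the libraries overlap at the highest level.

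Other genes whose levels followed those of a member across the classes were found by Pearson's r of log2(CPM + 1) over 10 points, 5 classes in 2 libraries, among 13967 genes with at least 200 UMIs. The 2 points of a class come from different libraries and the classes of a library share its free RNA and depth, so these values are descriptions. Nearest to Adcy9 was Cux2 (r = 0.994), a homeobox transcription factor gene, followed by Gm26691 and Cyp39a1 (0.990 and 0.989). Adcy4 was followed most closely by Gja1 (0.997), the connexin of endothelial and other gap junctions, Eng (0.997), an endothelial co-receptor of the TGF-beta family, and Rnd1 (0.996). For Adcy7 the list was Syk (0.996), a kinase of immune receptors, 4930430E12Rik (0.996) and Spic (0.996), a macrophage transcription factor gene. Adcy8 was nearest to Bmp3 (0.987), Ankrd34b (0.982) and Gm31432 (0.982), and Adcy2 to Oit1 (0.990), Erich5 (0.988) and Tmem29 (0.988). Adcy6 was nearest to Cbx7 (0.993), Fut10 (0.986) and A430033K04Rik (0.983), and Adcy1 to Gm20554 (0.992), Fam13a (0.979) and Wnk3 (0.979). Adcy3 had the lowest best value, 0.970 with Cbfb, with Stk38 at 0.953, and Adcy5 was nearest to Sned1 (0.975) and Gpc6 (0.975).

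Few of the measured receptor genes upstream of the cyclases were called in beta-like cells, where 28.1% of all measured genes were higher and 19% lower. Of 9 measured Gs-coupled receptor genes 1 was higher, the adenosine receptor gene Adora2b at 1.31 (1.21 to 1.42), and 1 lower, the prostaglandin receptor gene Ptger4 at 0.652 (0.498 to 0.850), with a median log2 ratio of -0.02. The Adora2b ratio was 0.986 without TMM scaling, and its span-adjusted log2 ratio of 0.23 was below the limit. The incretin receptor genes Glp1r at 0.934 (0.913 to 0.956) and Gipr at 0.988 (0.911 to 1.07) did not pass. Of 7 measured Gi-coupled receptor genes 1 was higher, Ptger3 at 1.84 (1.52 to 2.24), and 0 were lower, with Adora1 at 0.801 (0.714 to 0.897) just above the limit for a lower call. Adra2a, the alpha2A-adrenergic receptor gene, was at 1.23 (1.16 to 1.30), while its ratio was 0.926 without TMM scaling and its log2 ratio adjusted for span was -0.15, so its direction turned with the scaling.

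In beta-like cells genes of G protein subunits and cyclase regulators were called in both directions, and phosphodiesterase genes in the lower direction, beside the 28.1% of all genes called higher and the 19% called lower. Of 15 G protein subunit genes 4 were higher, led by Gng5 at 2.68 (2.62 to 2.73) and Gnb2 at 1.78 (1.72 to 1.83), and 2 were lower, with a median log2 ratio of 0.24. Of 21 measured direct partners and regulators, a list that also holds the soluble cyclase gene Adcy10, 3 were higher and 11 lower, with a median of -0.35. The largest differences were those of the calmodulin-dependent kinase gene Camk4 at 0.343 (0.205 to 0.553) and the anchoring protein gene Akap5 at 0.474 (0.311 to 0.707). Of 14 measured phosphodiesterase genes, whose products degrade cyclic nucleotides, 0 were higher and 9 lower, with Pde2a at 0.402 (0.238 to 0.656) and Pde11a at 0.526 (0.271 to 0.980). Their median was -0.40, and 0.05 after adjustment for span; that of the regulators became -0.08. Of 20 effector genes 5 were higher and 4 lower, including Rapgef4, which encodes an Epac protein, at 0.649 (0.631 to 0.668). The span-adjusted log2 ratio of Rapgef4 was -0.12, which no longer reached the limit, and the effector median went from -0.12 to 0.09.

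The same lists in the other endocrine classes were counted in the same way. In alpha-like cells, where 21.2% of all genes were higher and 10.7% lower, 0 of 7 Gs-coupled receptor genes passed in either direction, 5 of 11 phosphodiesterase genes were lower and 0 higher, and 5 of 18 regulators were lower and 3 higher. In delta-like cells, where the shares of all genes were 18.3% and 14.3%, 0 of 6 Gs-coupled receptor genes passed, 3 of 10 phosphodiesterase genes were lower and 0 higher, and 7 of 18 regulators were lower and 3 higher. Adjusted for span, the median log2 ratio of the phosphodiesterase genes was 0.06 in alpha-like and 0.20 in delta-like cells, against -0.29 and -0.28 before.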

How the data were processed

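Per the submitters' processing notes, the authors used Cell Ranger 7.1 (7.1.0 per the file headers), Seurat 4 and edgeR, on build mm10. The sources used here do not state the gene annotation or whether intron reads or strand were counted. Per the labels' protocols the kit was 3′ v3.1 in one passage and v2 in another. The deposited values are raw UMI counts per gene and barcode, not normalized. The members, gene lists and most alternatives were chosen with earlier results of these data known.

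Barcodes with at least 500 genes, 1000 UMIs and at most 20% mitochondrial UMIs were kept, and doublets were called with Scrublet in Scanpy 1.11.5 (expected 0.8% per 1000 barcodes), which removed 614 saline and 256 CDS barcodes. Cells of both libraries were clustered together without the member genes (2000 variable genes, 30 components, 15 neighbours, Leiden resolution 1, leidenalg 0.10.2, igraph 0.11.9). Clusters were named from fixed markers and otherwise left unnamed, so names may differ from the study's. UMIs were summed per class and library and scaled with TMM factors of the pair (edgeR 4.0.16 in R 4.3.3), or plain CPM where only 1 library had enough cells. Factors were set within each class, and the class in which each member was highest among the 5 compared classes was the same for 9 of 9 members with plain CPM. Levels carry exact Poisson, shares exact Clopper-Pearson and ratios exact conditional 95% intervals. With 1 library per group, cells are not replicates and no p-value was computed. The span adjustment subtracts a running median of 501 genes ordered by annotated span (GENCODE on mm10, 32158 of 32285 genes matched). The ratio step was tested on simulated counts.

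Named genes were all members, the 2 measured genes of each list with the largest absolute log2 ratio in beta-like cells, the 3 nearest genes by r, and Glp1r, Gipr and Adra2a; some genes that this rule takes are not reported here. Genes used to describe clusters lie outside it and were chosen after their values were seen. DESeq2 1.42.0 gave the median-of-ratios factors, and scripts ran in Python 3.11.15 with SciPy 1.17.1, pandas 2.3.3, matplotlib 3.10.9 and NumPy 2.4.6. Alternatives covered filters, doublets, resolution, per-cell marker gates, scaling, thinning and span.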

Additional observations from a re-analysis of the deposited data

Results flagged for a closer look

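A signal of Adcy6 stood out in cells that no comparison used. The unnamed cluster 19, with 114 saline and 14 CDS cells and led by Fscn1, Tbc1d4, Tmsb4x and Ccr7 among others, held Adcy6 at 149.1 CPM (120 to 183) without TMM scaling, while alpha-like cells, the highest endocrine class on the same scale, held 61 CPM in saline. By library, cluster 19 was at 173 CPM in saline and 29.4 in CDS, the latter on 3 UMIs. It rested on 91 UMIs in 57 of 128 cells (44.5%), and 19 cells held 50% of them. Of the 91 UMIs 88 came from the saline library, so no comparison between libraries was made. The other members were lower there, with Adcy7 at 24.6 CPM on 15 UMIs and Adcy9 at 11.5 on 7.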

How the results depend on the processing

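The beta-like Adcy9 ratio was below 1 in all 13 settings run over the class, from 0.424 (plain CPM) to 0.710 (adjusted for span). The count of 2 lower members in beta-like cells became 1 with doublets kept and with the span adjustment, and 4 with plain CPM. With plain CPM the median log2 ratio of all beta-like genes, -0.35, was itself beyond the limit for a lower call. The single higher member, Adcy1, became 0 with the stricter filter (1000 genes, 2000 UMIs, 10%), Leiden resolution 0.5, marker gates, thinned cells, plain CPM and median-of-ratios factors. Over the other 4 classes the 8 lower calls became 5 with marker gates and 4 with cells thinned to 5000 UMIs or the span adjustment. The 1 higher call became 0 with cells thinned to 5000 UMIs. Apart from the span adjustment, the share of all genes called was not computed under the alternative settings, so these counts have no background beside them. Directions turned for Adcy9 in endothelial-like cells with the looser filter (200 genes, 500 UMIs, 25%) at 1.26, for Adcy2 in alpha-like cells with doublets kept at 1.02, and for Adcy8 in beta-like cells with the span adjustment at 1.02 and within cluster 2 at 1.22 and cluster 8 at 1.81. Adcy1 in beta-like cells turned within clusters 0, 8 and 14, at 0.562, 0.905 and 0.845. These Adcy1 values rest on 19 and 2, 6 and 1, and 4 and 10 UMIs, and Adcy8 in cluster 8 on 24 and 8, all under the 50-UMI minimum, while the interval of Adcy8 in cluster 2 (0.712 to 2.18) included 1, so none is a call. The causes of these changes were not tested. The Adcy9 share of member UMIs in saline beta-like cells was 84.8% at resolution 0.5 and 84.6% with marker gates, and in CDS 79.9% as a mean over cells. Thinned to 10000 in place of 5000 UMIs, the difference CDS minus saline in the share of cells with Adcy9 was -27.5 in place of -24.8 percentage points in beta-like, -10.9 in place of -17.6 in alpha-like and -19.7 in place of -13.1 in delta-like cells. Without hormone and mitochondrial genes in the total, the Adcy9 range over beta-like clusters was 5.03-fold in place of 8.04-fold; this and the omission of cluster 8, which left both beta-like counts at 2 lower and 1 higher, were added after the data were seen. Scaling moved the median log2 ratio of all genes in beta-like cells from 0.06 to -0.35 without TMM. No paired analysis was possible because each group has 1 library. Members with fewer than 50 UMIs in a class were not counted as higher or lower there.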

Other observations

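Adcy9 was also present in the unnamed clusters that held insulin RNA. In cluster 10, which held 38.6% insulin UMIs and was led by the acinar genes Cela3b, Cpa1 and Ctrb1, it was at 155 CPM in 202 saline cells and 77.1 in 442 CDS cells, without TMM scaling. In cluster 12, led by Chga, Sst and Trpm3, it was at 226 CPM in 298 saline and 103 in 188 CDS cells, beside Adcy8 at 14.8 and 13.5 CPM. In cluster 17, led by Dnah12, Sugct and Gcg, it was at 53.97 and 24.2 CPM on 46 and 17 UMIs. Cluster 13, led by the T cell genes Ctla4, Inpp4b and Tnfrsf4, held mainly Adcy7 at 45.8 CPM (32.9 to 62.2) and Adcy3 at 17.9 (10.2 to 29.0) over both libraries.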
